A study of Mus musculus with 18 samples.

Results

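The 10 genes described here encode Smad proteins and regulators of their activity, namely Smad2, Smad3, Smad4, Smad6, Smad7, Ski, Skil, Smurf1, Smurf2 and Pmepa1. They were taken by gene symbol from tables of 17001 symbols in undifferentiated and 15482 symbols in differentiated mouse cells, and all 10 passed the filter on low counts in both. Poly(A) RNA was sequenced from primary preadipocytes, the fibroblast-like precursors of fat cells, taken from epididymal white adipose tissue of wild-type mice. The 18 libraries form 6 groups of 3. Cells of mice on a control diet were treated with TGF-b1 and SB431542 together (TGF-b1 + SB431542), with TGF-b1 alone (TGF-b1) or with mock treatment (CD mock). The fourth group (HFD mock) was mock-treated and came from animals given a high-fat diet. The remaining groups were sorted with an antibody to CD49e, the protein product of Itga5, into Itga5-High and Itga5-Low cells, and both were then taken through adipogenic differentiation; the diet of their donors is not stated. The labels give no dose, treatment time, age or sex, and they do not say whether the replicates came from separate animals or cultures. The p-values therefore measure only the spread between these samples, which may be technical.

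TGF-b binds a pair of receptor kinases that phosphorylate Smad2 and Smad3, the receptor-regulated Smads, which enter the nucleus with the common partner Smad4 and switch target genes. Smad signalling has its own brakes, and the genes of some of them are among the targets. The brakes include the inhibitory Smads Smad6 and Smad7 and the corepressors Ski and Skil (SnoN). They also include the ubiquitin ligases Smurf1 and Smurf2 and the membrane protein Pmepa1, which binds receptor-regulated Smads. In fat precursors TGF-b is known for holding back adipocyte formation and for promoting matrix production, and SB431542 inhibits the type I receptor kinases of TGF-b and activin.

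RefSeq promoters (GRCm38.p6) are shown for 5 of the 10 members. These 5 include genes that fell with TGF-b1 (Smad3, Smad6) and genes that rose (Smurf1, Smurf2, and Ski by TMM but not with total counts). Promoters of the other members were left out, which does not mean that the reference lacks them. Each sequence below holds the 250 bases before the gene start, read 5′ to 3′ on the minus strand, at chr9:63757995-63758244 for Smad3, chr9:64022060-64022309 for Smad6, chr4:155222536-155222785 for Ski, chr5:144965831-144966080 for Smurf1 and chr11:106920716-106920965 for Smurf2. Capitals mark CAGAC, the core of the Smad-binding element, and GGCGC, a GC-rich sequence that Smads can also bind, with matches on the other strand reading GTCTG and GCGCC.
Smad3: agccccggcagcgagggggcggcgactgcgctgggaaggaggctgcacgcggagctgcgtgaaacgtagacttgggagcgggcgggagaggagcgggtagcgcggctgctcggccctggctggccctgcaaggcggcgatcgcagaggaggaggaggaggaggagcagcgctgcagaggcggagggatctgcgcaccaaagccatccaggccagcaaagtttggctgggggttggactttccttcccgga
Smad6: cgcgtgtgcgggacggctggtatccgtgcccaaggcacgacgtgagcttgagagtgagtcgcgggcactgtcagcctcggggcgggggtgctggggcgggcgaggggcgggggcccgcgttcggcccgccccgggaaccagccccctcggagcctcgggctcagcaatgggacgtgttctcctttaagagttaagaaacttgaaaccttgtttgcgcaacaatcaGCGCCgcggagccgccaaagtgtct
Ski: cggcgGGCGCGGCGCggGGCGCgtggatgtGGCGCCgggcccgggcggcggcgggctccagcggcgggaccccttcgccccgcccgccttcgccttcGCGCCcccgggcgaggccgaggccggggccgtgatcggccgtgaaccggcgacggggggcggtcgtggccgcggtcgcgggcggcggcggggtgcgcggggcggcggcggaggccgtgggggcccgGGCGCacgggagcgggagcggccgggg
Smurf1: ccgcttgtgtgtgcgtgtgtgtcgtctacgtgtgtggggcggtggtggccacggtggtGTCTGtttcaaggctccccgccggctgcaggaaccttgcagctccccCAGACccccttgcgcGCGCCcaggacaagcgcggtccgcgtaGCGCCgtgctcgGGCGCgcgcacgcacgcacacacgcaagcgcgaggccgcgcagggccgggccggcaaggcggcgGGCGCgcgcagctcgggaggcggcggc
Smurf2: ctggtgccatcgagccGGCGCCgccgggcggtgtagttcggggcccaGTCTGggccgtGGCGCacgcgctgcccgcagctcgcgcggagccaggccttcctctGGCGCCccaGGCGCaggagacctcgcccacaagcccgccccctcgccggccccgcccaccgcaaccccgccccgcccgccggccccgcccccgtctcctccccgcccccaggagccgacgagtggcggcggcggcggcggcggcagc
Smad3 held neither motif and Smad6 held 1 GGCGC match. Ski held 0 CAGAC and 7 GGCGC matches. Smurf1 held 2 CAGAC and 4 GGCGC matches, and Smurf2 held 1 CAGAC and 6 GGCGC matches, where GGCGCC counts once on each strand. Of 32851 promoter windows of this length, 42.2% held CAGAC and 32.0% held GGCGC. The palindrome GTCTAGAC was in 0.167% of them and in none of the 5 members shown. The other members, Smad7 among them, were not searched for any of these motifs. The windows also differed in GC content, at 69.2% for Smad3, 66.8% for Smad6, 87.6% for Ski, 74.8% for Smurf1 and 82% for Smurf2. These matches describe the letters of the window only, and any relation to the direction of change was not tested.

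Total counts per library ranged from 11154449 to 17288608, and the members had between 347 and 9820 counts in a library. The median coefficient of variation between replicates was 2.43% over the 60 combinations of gene and group. Values are CPM, library-size-scaled counts after TMM normalisation. TMM holds the median gene near no change, whereas scaling to total counts moved that median by -0.15 in TGF-b1 over CD mock, by 0.26 in TGF-b1 + SB431542 over TGF-b1 and by 0.11 in TGF-b1 + SB431542 over CD mock, in log2 units. With total counts the share of called genes that were higher was 31.4% in TGF-b1 over CD mock (49.4% with TMM), 70.0% in TGF-b1 + SB431542 over TGF-b1 (52.0%), 67.7% in TGF-b1 + SB431542 over CD mock (50.1%) and 33.7% in HFD mock over CD mock (50.5%). All 8 preadipocyte markers were detected in every group, although Dpp4 averaged only 0.775 CPM in Itga5-High and 0.535 CPM in Itga5-Low cells. Of these 8 markers, 6 were lower and 2 higher in TGF-b1 than in CD mock cells, and 6 were lower and 2 higher in HFD mock than in CD mock cells. The summed level of 6 adipocyte markers was 3960 to 3991 CPM in Itga5-High cells and 4233 to 4275 CPM in Itga5-Low cells, although Lep was at 0 in every group. Itga5 itself averaged 472 ± 8.82 CPM in Itga5-High cells and 329 ± 4.68 CPM in Itga5-Low cells (SD, n = 3 each), in the direction of the sort label.

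In mm10, as the tables give it, Smad3 (chr9:63646767-63757995) and Smad6 (chr9:63953076-64022060) lie on the same chromosome and strand, as Smad2 (chr18:76241701-76311748) and Smad7 (chr18:75367365-75395935) do, with Smad4 on the other strand of that chromosome (chr18:73634791-73703792). Ski lies at chr4:155154075-155222536, Skil at chr3:31095058-31122924 and Pmepa1 at chr2:173224465-173276534. Smurf1 lies at chr5:144876495-144965831 and Smurf2 at chr11:106820061-106920716.

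TGF-b1 raised 6 members and lowered 2 at an adjusted p under 0.05 in edgeR's quasi-likelihood test. Pmepa1, Skil, Smad7, Smurf2, Smurf1 and Ski rose, Smad3 and Smad6 fell, and Smad2 and Smad4 did not pass. The 8 calls compare with 67.6% of the 14078 genes tested, 33.4% higher and 34.2% lower, so the number of calls by itself does not set the members apart. The median log2 change of the 10 members was 0.32, against -0.02 over all genes tested. Pmepa1 ranked 187 from the top of all changes, Skil 761 and Smad7 915.

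Adding SB431542 to TGF-b1 lowered 7 members and raised 2, relative to TGF-b1 alone, with 79.7% of all genes called, 38.3% of all genes lower and 41.4% higher. Pmepa1, Skil, Smad7, Smurf2, Smurf1, Ski and Smad4 fell, while Smad3 and Smad6 rose and Smad2 did not pass. The direction of Smad4 turned round with total-count scaling, where its log2 change was 0.16. These groups share the TGF-b1 libraries with the preceding comparison, so the signs of the 2 comparisons are not independent observations. Markers of several cell types also differed between these groups. The summed level of the 6 adipocyte markers was 861 to 876 CPM in TGF-b1 + SB431542, 57.3 to 60.8 CPM in TGF-b1 and 193 to 199 CPM in CD mock cells, and all 5 that were tested were higher with SB431542 than in either other group. The 8 macrophage markers summed to 949 to 968 CPM in TGF-b1 + SB431542, 493 to 507 CPM in TGF-b1 and 470 to 479 CPM in CD mock cells, and all 8 were higher with SB431542 than in either other group. In TGF-b1 over CD mock, 1 of the 8 was higher and 4 were lower. Most of the sum in these 2 groups was Lyz2, at 384 CPM in TGF-b1 and 307 CPM in CD mock cells. The 6 endothelial markers summed to 684 to 698 CPM in TGF-b1 + SB431542, 220 to 223 CPM in TGF-b1 and 347 to 366 CPM in CD mock cells, but did not move as one. Of these 6, 4 were higher and 2 lower in TGF-b1 + SB431542 than in TGF-b1 cells, and 2 were higher and 4 lower in TGF-b1 than in CD mock cells. Kdr, a receptor for vascular growth factors, averaged 56.2 CPM in TGF-b1 + SB431542, 103 CPM in TGF-b1 and 66.0 CPM in CD mock cells, against the direction of the sum. Of the 8 preadipocyte markers 6 were higher and 2 lower in TGF-b1 + SB431542 than in TGF-b1 cells, and of the 6 mesothelial markers 5 were higher and 1 lower. Their part in the members' changes was not tested.

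Relative to CD mock, TGF-b1 + SB431542 left 7 members lower and none higher by edgeR, with 61% of all genes called, 30.4% lower and 30.6% higher. The count of members higher was also 0 at an unadjusted p under 0.05 and with DESeq2, but it was 3 after scaling to total counts. Pmepa1 and Skil had the largest changes among the members, ranking 53 and 148 from the bottom of 14078 genes.

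High-fat diet cells had 7 members higher and 1 lower than CD mock cells, against 53.7% of all genes called, 27.1% higher and 26.6% lower. The member that fell was Smad3, and the members higher were the inhibitory Smads, Ski, Skil, both Smurf genes and Pmepa1. Apart from Smad3, every called change was under 1.3-fold.

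After differentiation, Itga5-High cells had 4 members higher and 4 lower than Itga5-Low cells, against 53.5% of 13468 genes called, 27% higher and 26.5% lower. Smad7, Smurf1, Smurf2 and Pmepa1 were higher, and Smad2, Smad3, Smad4 and Ski were lower. Every change was under 1.2-fold. In each of the 5 comparisons the members called were those whose libraries did not overlap between the groups. Libraries did not overlap for 69.4% of all genes in TGF-b1 over CD mock, 80.2% in TGF-b1 + SB431542 over TGF-b1, 64% in TGF-b1 + SB431542 over CD mock, 58% in HFD mock over CD mock and 58.2% in Itga5-High over Itga5-Low.

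**Figure D1:**
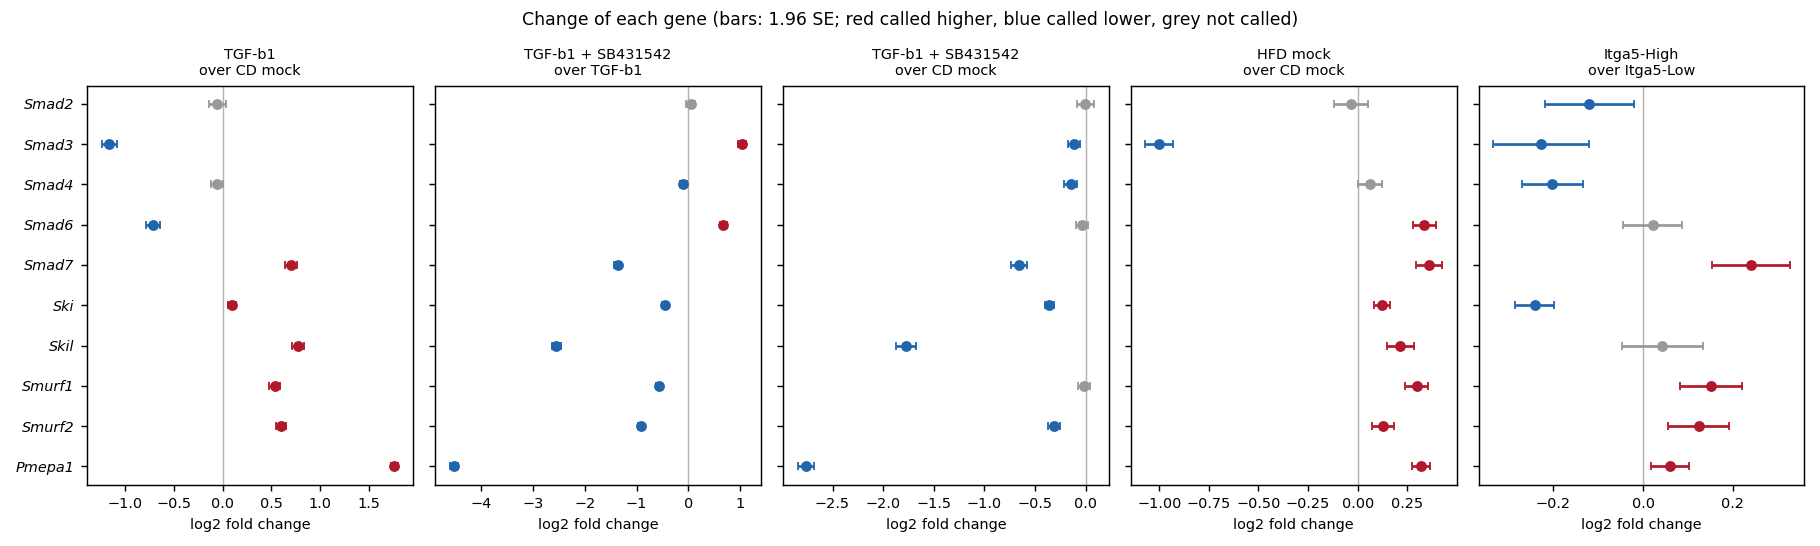
Log2 fold change of each of the 10 genes (rows) in the 5 comparisons (panels, each with its own horizontal scale); points are edgeR estimates, bars are 95% intervals, and colour gives the call. Pmepa1 has the largest change in both comparisons with TGF-b1 alone, at 1.76 and -4.53.

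The receptor-regulated Smads behaved differently from each other. Smad3 had 57.1, 61.0 and 63.6 CPM in TGF-b1 cells, against 136, 134 and 138 CPM in CD mock cells. Every TGF-b1 library was below every CD mock library, and Smad3 fell by 1.16 ± 0.04 log2 units (SE; adjusted p = 3.41e-29), a 2.24-fold lower level. With SB431542 added it had 125, 129 and 122 CPM, which lay above all TGF-b1 libraries and just below all CD mock libraries. The change was 1.04 ± 0.04 over TGF-b1 (adjusted p = 9.38e-28) and -0.12 ± 0.03 over CD mock (adjusted p = 0.000802), and the second call was lost with total-count scaling (-0.01, adjusted p = 0.795). In HFD mock cells Smad3 had 65.9, 69.7 and 68.8 CPM, again without overlap with CD mock, and was lower at 0.50 of its CD mock level (log2 change -0.999 ± 0.04, adjusted p = 3.24e-27).

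Markers of several cell types were lower in the same groups as Smad3. The summed level of the 6 mesothelial markers was 1948 to 1960 CPM in TGF-b1 + SB431542, 582 to 597 CPM in TGF-b1, 544 to 558 CPM in HFD mock and 2115 to 2137 CPM in CD mock cells. Of the 6, 5 fell with TGF-b1, where Msln did not pass, and 6 were lower in HFD mock cells. The 6 endothelial markers summed to 152 to 159 CPM in HFD mock cells, against 347 to 366 CPM in CD mock cells, with 5 lower and 1 higher. The preadipocyte markers Cd34 (14.5 CPM in TGF-b1, 28.0 CPM in HFD mock and 142 CPM in CD mock cells) and Dcn (165, 425 and 978 CPM in the same order) were lower as well. Of the 8 preadipocyte markers, 6 were lower and 2 higher than in CD mock cells in each of these groups. The 2 higher were Pdgfrb (1001, 1072 and 850 CPM) and Col1a1 (14769, 12955 and 8930 CPM), in the same order. The part of any of these cells in the Smad3 result was not tested, and in bulk RNA fewer cells of a type and less RNA per cell cannot be told apart. In the differentiated cells 2 of the 6 mesothelial markers had enough counts to be tested, and the sum was nearly all Krt19, a keratin, at 99.3 CPM in Itga5-High and 40.1 CPM in Itga5-Low cells. Smad3 was lower in Itga5-High cells. It had 32.4, 33.8 and 32.4 CPM in Itga5-High cells, against 37.3, 39.7 and 38.2 CPM in Itga5-Low cells, a log2 change of -0.23 ± 0.05 (adjusted p = 0.000244).

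Smad2, which is also phosphorylated by the TGF-b receptor, had nearly equal levels in the undifferentiated groups. It averaged 63.3 ± 4.09 CPM in TGF-b1 + SB431542, 60.9 ± 1.78 CPM in TGF-b1, 62.1 ± 1.92 CPM in HFD mock and 63.5 ± 1.77 CPM in CD mock cells (SD, n = 3 each), and the libraries of neighbouring groups overlapped throughout. Its change with TGF-b1 was -0.06 log2 units with a 95% interval of -0.14 to 0.03, a range that leaves out changes of the size seen for Smad3. Scaling to total counts gave calls for Smad2 in all 4 undifferentiated comparisons, at -0.20, 0.31, 0.10 and -0.12 in the order TGF-b1 over CD mock, TGF-b1 + SB431542 over TGF-b1, TGF-b1 + SB431542 over CD mock and HFD mock over CD mock. In Itga5-High cells it had 39.8, 37.3 and 40.6 CPM, against 43.3, 43.2 and 41.6 CPM in Itga5-Low cells (log2 change -0.12 ± 0.05, adjusted p = 0.0305). This call was lost with DESeq2 (adjusted p = 0.123) and when any of 4 single libraries was left out, with adjusted p up to 0.155.

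The ratio of Smad3 to Smad2 within a library does not depend on how libraries are scaled. Per kilobase of transcript, Smad3 stood at 3.401 ± 0.13 times the Smad2 level in TGF-b1 + SB431542, 1.71 ± 0.06 times in TGF-b1, 1.88 ± 0.02 times in HFD mock and 3.68 ± 0.14 times in CD mock cells. The 3 libraries of TGF-b1 and those of HFD mock all lay below 2, and those of the other undifferentiated groups all above 3. The sum of Smad2 and Smad3 was 31.8 ± 1.11, 18.9 ± 0.823, 20.5 ± 0.601 and 34.0 ± 0.438 CPM per kb in the same order of groups. In differentiated cells the ratio was 1.44 ± 0.10 in Itga5-High and 1.54 ± 0.06 in Itga5-Low cells, and their libraries overlapped.

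Smad4, the partner shared by the TGF-b and BMP branches, varied little. It averaged 105 ± 1.11 CPM in TGF-b1 + SB431542, 112 ± 3.01 CPM in TGF-b1, 122 ± 2.97 CPM in HFD mock and 117 ± 2.97 CPM in CD mock cells (SD, n = 3 each). The TGF-b1 change was -0.05 log2 units (95% interval -0.12 to 0.01) by TMM and -0.20 with total counts, where it was called (adjusted p = 3.79e-07). The HFD mock change of 0.06 did not pass (adjusted p = 0.0836), although it passed without CD mock replicate 1 (adjusted p = 0.0463) or without HFD mock replicate 1 (adjusted p = 0.0409). TGF-b1 + SB431542 cells were lower than CD mock cells by TMM (log2 change -0.15 ± 0.03, adjusted p = 9.23e-05), a call lost with total counts (-0.04, adjusted p = 0.299). Itga5-High cells had 89.3, 90.3 and 85.5 CPM, all below the 97.8, 105 and 102 CPM of Itga5-Low cells (log2 change -0.20 ± 0.03, adjusted p = 6.09e-06).

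**Figure D2:**
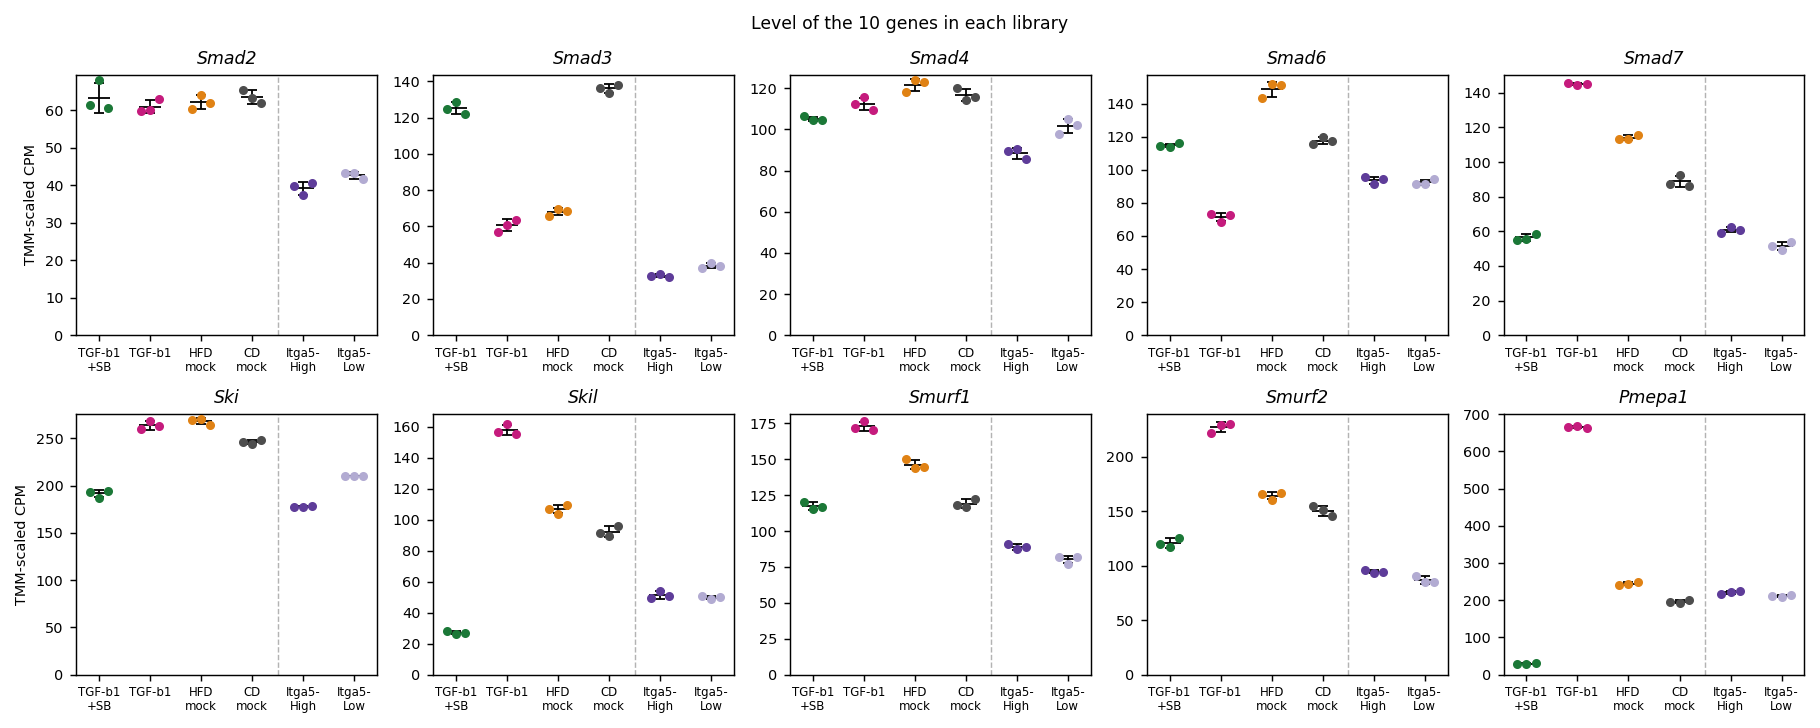
TMM-scaled CPM (vertical axes from 0) of each gene in every library; coloured points are the 3 libraries of a group, black marks the mean and SD, and the dashed line parts the separately scaled undifferentiated and differentiated tables. Smad3 is low in TGF-b1 and HFD mock cells, at 60.6 and 68.1 CPM, and Smad2 lies between 60.9 and 63.5 CPM in all undifferentiated groups.

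The inhibitory Smads moved apart with TGF-b1. Smad7, which blocks Smad2 and Smad3 at the receptor and recruits Smurf ligases to it, had 146, 145 and 145 CPM in TGF-b1 cells, against 87.4, 92.7 and 86.4 CPM in CD mock cells. The groups did not overlap, and Smad7 rose by 0.70 ± 0.03 log2 units, or 1.63-fold (adjusted p = 1.77e-23). Smad6, which acts chiefly on the BMP branch, had 73.4, 68.7 and 72.7 CPM in TGF-b1 cells, against 116, 120 and 117 CPM in CD mock cells. It fell by 0.71 ± 0.04 log2 units (adjusted p = 7.23e-22), again without overlap.

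With SB431542 added, Smad7 had 54.9, 55.8 and 58.6 CPM, below both the TGF-b1 and the CD mock libraries. It was 2.57-fold lower than in TGF-b1 (adjusted p = 2.73e-33) and 1.58-fold lower than in CD mock cells (adjusted p = 2.96e-19). Smad6 had 114, 114 and 116 CPM, 1.60-fold above TGF-b1 (adjusted p = 1.55e-21) and overlapping with CD mock. Its log2 change over CD mock was -0.04 with a 95% interval of -0.10 to 0.02 by TMM, and it was 0.07 with total counts (adjusted p = 0.0438), a call in the other direction.

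In HFD mock cells both inhibitory Smads were higher than in CD mock cells. Smad7 had 113, 113 and 116 CPM and changed by 0.36 ± 0.03 log2 units (adjusted p = 7.17e-13). Smad6 had 143, 152 and 151 CPM and changed by 0.34 ± 0.03 (adjusted p = 2.57e-13), the highest level of any undifferentiated group. Smad6 was thus lower than CD mock in TGF-b1 cells and higher in HFD mock cells, in comparisons that share the CD mock libraries. Macrophage markers moved with the diet: the summed level of the 8 markers was 1936 to 1953 CPM in HFD mock and 470 to 479 CPM in CD mock cells, and all 8 were called higher. Their part in the changes of the members was not tested.

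The per-length ratio of Smad7 to Smad6 was 0.329 ± 0.00867 in TGF-b1 + SB431542, 1.36 ± 0.0442 in TGF-b1, 0.514 ± 0.0148 in HFD mock and 0.505 ± 0.0121 in CD mock cells (SD, n = 3 each). Only in TGF-b1 libraries was Smad7 above Smad6, and the HFD mock and CD mock ratios overlapped. Itga5-High cells had 0.436 ± 0.0213 and Itga5-Low cells 0.373 ± 0.0119, without overlap. There Smad7 had 59.3, 62.4 and 61.0 CPM in Itga5-High cells, against 51.4, 49.1 and 53.9 CPM in Itga5-Low cells (log2 change 0.24 ± 0.04, adjusted p = 1.05e-05). Smad6 averaged 93.6 ± 2.21 CPM in Itga5-High and 92.4 ± 1.63 CPM in Itga5-Low cells and did not pass (95% interval of the log2 change -0.04 to 0.09).

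**Figure D3:**
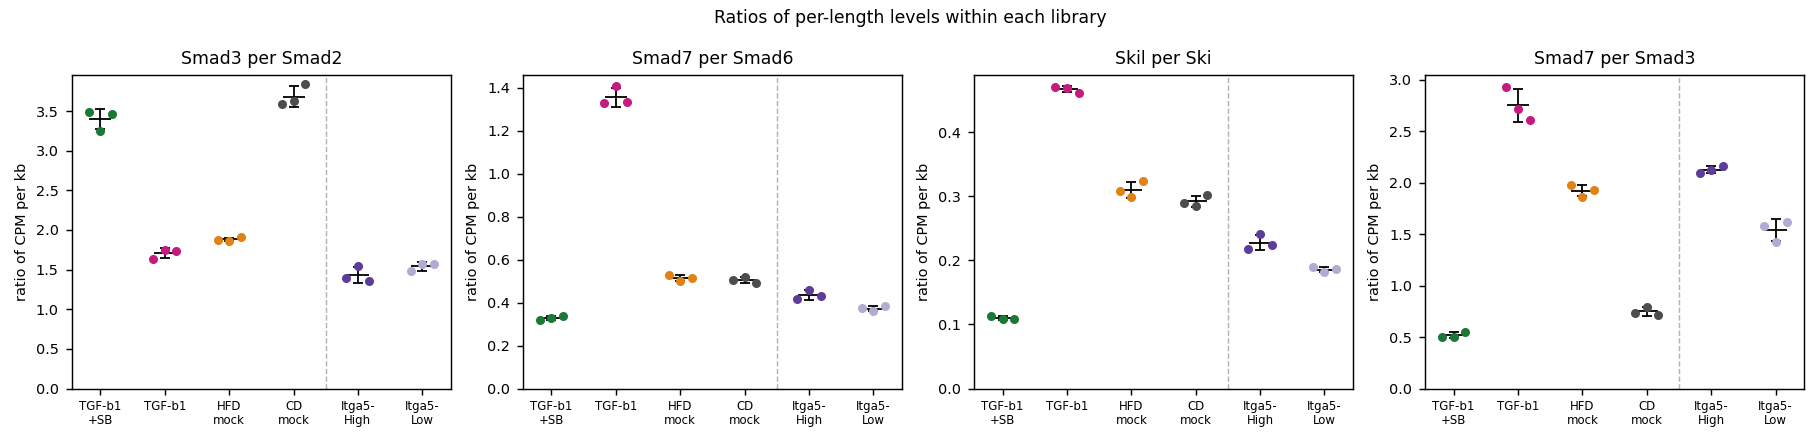
Ratios of per-length levels (CPM per kb) within each library for 4 pairs of genes; coloured points are libraries and black marks the mean and SD of 3. Smad7 per Smad6 averages 1.36 in TGF-b1 cells and lies under 0.53 in every other library.

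The corepressors Ski and Skil bind Smad complexes on DNA and keep target genes off. Skil had 157, 162 and 156 CPM in TGF-b1 cells, against 91.3, 89.2 and 96.1 CPM in CD mock cells. It rose 1.71-fold (log2 change 0.78 ± 0.03, adjusted p = 4.25e-25), and no library overlapped. With SB431542 added it had 28.1, 26.2 and 26.7 CPM, 5.84-fold lower than TGF-b1 (adjusted p = 6.68e-41) and 3.41-fold lower than CD mock (adjusted p = 4.93e-32). HFD mock cells had 107, 104 and 109 CPM, a log2 change of 0.22 ± 0.03 over CD mock (adjusted p = 4.96e-07).

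Ski changed less than Skil in the undifferentiated groups. Ski had 260, 268 and 263 CPM in TGF-b1 cells, against 246, 244 and 248 CPM in CD mock cells, a log2 change of 0.10 ± 0.02 (adjusted p = 0.000301) that turned to -0.05 with total-count scaling (adjusted p = 0.0678). With SB431542 added it had 193, 187 and 195 CPM, lower than TGF-b1 by 1.38-fold (adjusted p = 6.08e-21) and than CD mock by 1.28-fold (adjusted p = 1.39e-16). The HFD mock change of 0.12 ± 0.02 log2 units over CD mock (adjusted p = 1.76e-05) was lost with total counts (0.04, adjusted p = 0.149).

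Per kilobase, Skil stood at 0.110 ± 0.00271 of Ski in TGF-b1 + SB431542, 0.467 ± 0.0048 in TGF-b1, 0.310 ± 0.0127 in HFD mock and 0.292 ± 0.00881 in CD mock cells. The TGF-b1 + SB431542 libraries were lowest and the TGF-b1 libraries highest, while HFD mock and CD mock libraries overlapped. After differentiation Ski had 178, 177 and 179 CPM in Itga5-High cells, against 210, 210 and 211 CPM in Itga5-Low cells (log2 change -0.24 ± 0.02, adjusted p = 3.78e-10). Skil averaged 51.3 ± 2.49 CPM in Itga5-High and 49.6 ± 1.07 CPM in Itga5-Low cells and did not pass (95% interval of the log2 change -0.05 to 0.13).

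The ligases Smurf1 and Smurf2 tag Smads and receptors with ubiquitin. Smurf2 had 222, 230 and 231 CPM in TGF-b1 cells, against 155, 151 and 145 CPM in CD mock cells, and rose 1.51-fold (log2 change 0.60 ± 0.03, adjusted p = 1.09e-22). Smurf1 had 172, 177 and 171 CPM in TGF-b1 cells, against 118, 117 and 122 CPM in CD mock cells, and rose 1.45-fold (log2 change 0.54 ± 0.03, adjusted p = 2.50e-20). Neither gene had overlapping libraries.

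With SB431542 added, both ligase genes fell relative to TGF-b1 alone. Smurf2 then had 120, 117 and 125 CPM, 1.88-fold lower than TGF-b1 (adjusted p = 1.78e-29) and also lower than every CD mock library (log2 change -0.32 ± 0.03, adjusted p = 8.45e-12). Smurf1 had 120, 115 and 116 CPM, 1.47-fold lower than TGF-b1 (adjusted p = 1.71e-21) but overlapping with CD mock, with a log2 change of -0.02 (95% interval -0.08 to 0.04) that became 0.09 with total counts (adjusted p = 0.0136). HFD mock cells had 150, 144 and 145 CPM of Smurf1 (log2 change over CD mock 0.30 ± 0.03, adjusted p = 1.19e-11). For Smurf2 they had 166, 161 and 166 CPM, a change of 0.13 ± 0.03 (adjusted p = 0.000253) lost with total counts (0.05, adjusted p = 0.186).

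In Itga5-High cells Smurf1 averaged 88.9 ± 1.88 CPM, against 80.3 ± 2.60 CPM in Itga5-Low cells (log2 change 0.15 ± 0.04, adjusted p = 0.000388). Smurf2 averaged 94.5 ± 1.53 CPM in Itga5-High and 86.9 ± 3.52 CPM in Itga5-Low cells (0.12 ± 0.03, adjusted p = 0.00266). An annotated microRNA gene, Gm27322, overlaps a Smurf2 exon by 58 bases on the same strand in GENCODE M21, so reads of the 2 genes there cannot be told apart.

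Pmepa1 had the largest TGF-b1 change of the members. It had 666, 669 and 662 CPM in TGF-b1 cells, against 195, 193 and 201 CPM in CD mock cells, and rose 3.39-fold (log2 change 1.76 ± 0.02, adjusted p = 1.81e-45). With SB431542 added it had 27.7, 28.6 and 30.4 CPM. This was 23.03-fold lower than TGF-b1 (log2 change -4.53 ± 0.04, adjusted p = 6.36e-55) and 6.78-fold lower than CD mock (-2.76 ± 0.04, adjusted p = 3.61e-41), with no overlap in either case. Of 14078 genes, 64 fell further when SB431542 was added to TGF-b1.

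In HFD mock cells Pmepa1 had 241, 243 and 249 CPM, 1.25-fold above CD mock (adjusted p = 2.57e-14). Itga5-High cells had 217, 221 and 224 CPM, against 211, 210 and 213 CPM in Itga5-Low cells, a log2 change of 0.06 ± 0.02 (adjusted p = 0.0363). That call was lost with total counts (0.02, adjusted p = 0.514), with DESeq2 (adjusted p = 0.0624) and when any of 4 single libraries was left out, with adjusted p up to 0.14.

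**Figure D4:**
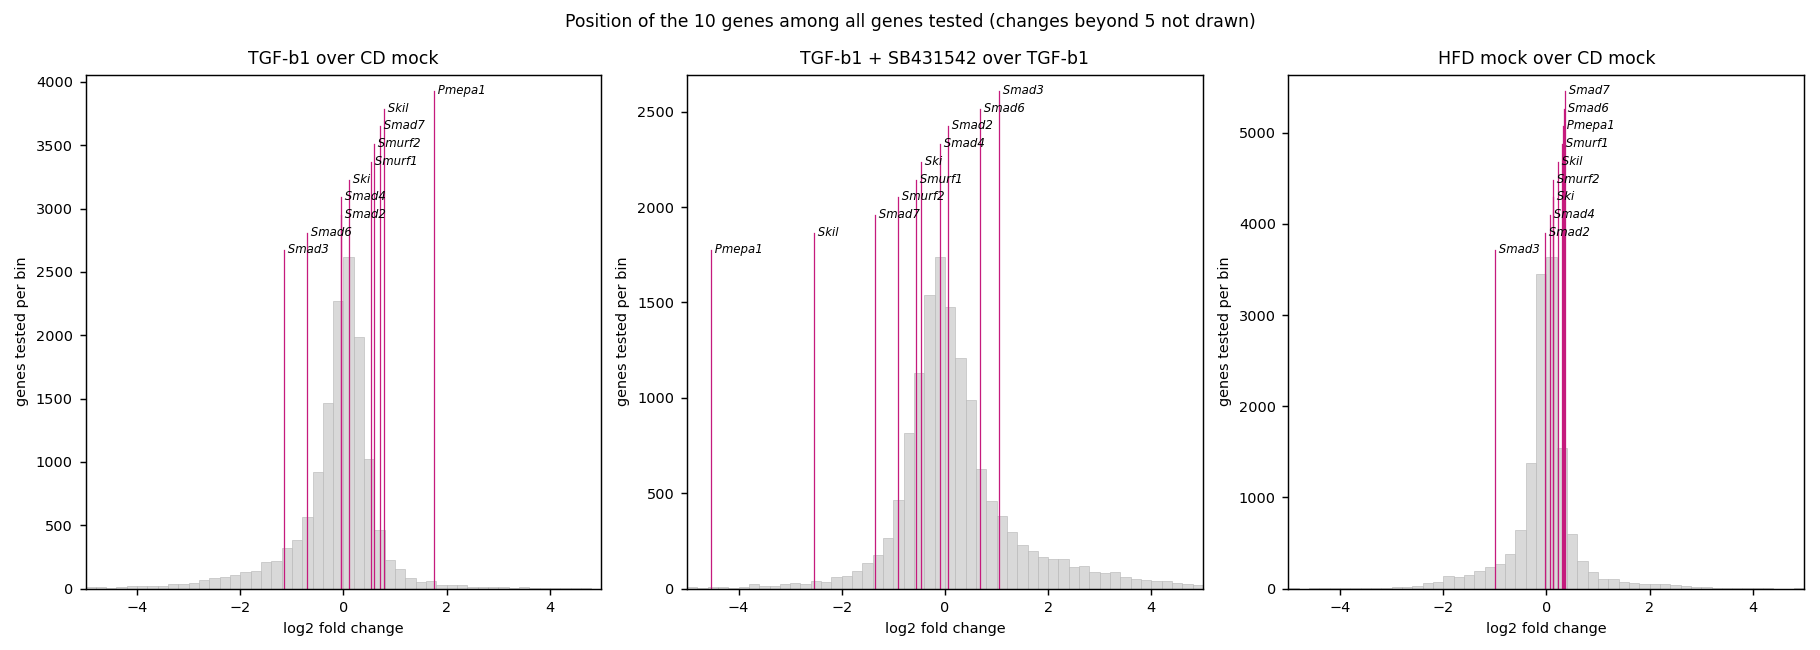
Number of genes per bin of log2 fold change (grey bars, 14078 genes tested, changes beyond 5 not drawn) in 3 comparisons, with the 10 genes as labelled lines whose heights serve only to part the labels. Pmepa1 lies far out at 1.76 with TGF-b1 and at -4.53 when SB431542 is added, while in HFD mock over CD mock Smad3 stands apart from the others at -0.999.

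The members' levels can be set against each other only per kilobase of transcript. In TGF-b1 cells Pmepa1 was highest at 147 CPM per kb, followed by Ski at 48.6 and Smurf2 at 42.4, and Smad2 was lowest at 6.97. In CD mock cells Ski at 45.4 CPM per kb stood above Pmepa1 at 43.3 and Smad6 at 39.6, with no overlap between neighbours, and Smad2 was again lowest at 7.27. In TGF-b1 + SB431542 cells Smad6 was first at 38.6, and Pmepa1 at 6.38 and Skil at 3.89 came last, below Smad2 at 7.24.

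In HFD mock cells Pmepa1 at 53.9 CPM per kb came before Smad6 at 50.1 and Ski at 49.5, and these last 2 overlapped. Other neighbours with overlapping libraries were Smurf2 and Smurf1 in TGF-b1 + SB431542, Smad7 and Smurf1 as well as Smad6 and Skil in TGF-b1, Smad4 and Skil in HFD mock, Smurf2 and Smad3 in CD mock, and Smad3 and Skil in Itga5-Low cells. Pmepa1 led in both differentiated groups, at 48.7 CPM per kb in Itga5-High and 46.6 in Itga5-Low cells. Smad3 stood at 6.45 CPM per kb in Itga5-High and 7.54 in Itga5-Low cells, against 26.7 in CD mock cells of the separately made table, a difference that was not tested.

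**Figure D5:**
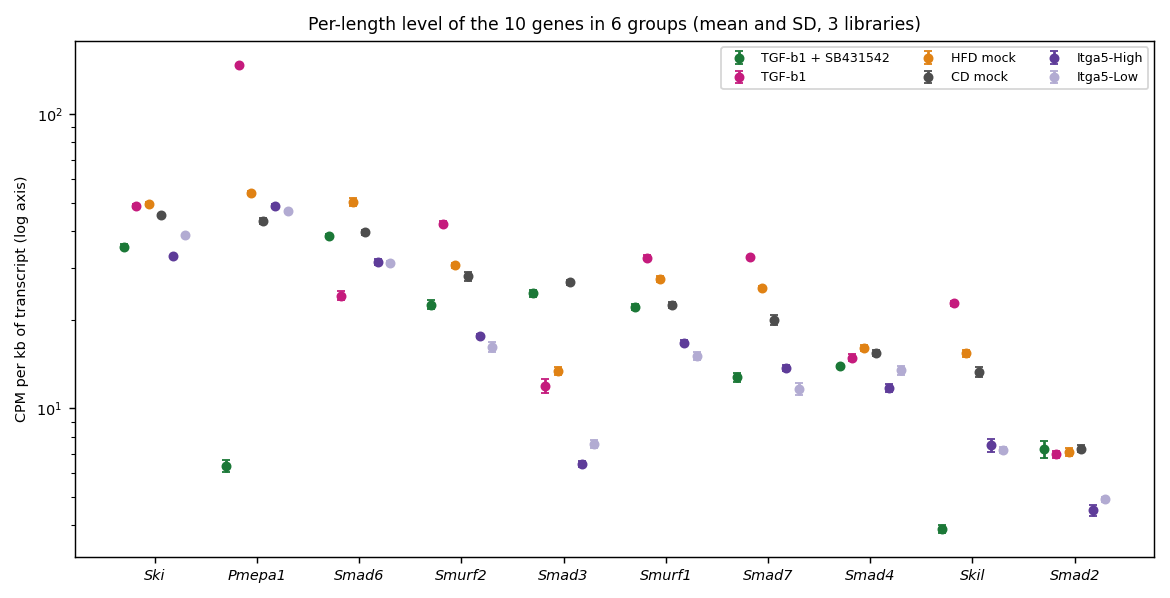
Per-length level (CPM per kb of transcript, log axis) of the 10 genes, ordered by their CD mock level; points are means and bars the SD of 3 libraries. Pmepa1 spans the widest range, with 6.38 in TGF-b1 + SB431542 and 147 in TGF-b1 cells.

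The brake genes can also be read against Smad3 in the same library. Smad7 per Smad3 was 0.518 ± 0.0287 in TGF-b1 + SB431542, 2.75 ± 0.16 in TGF-b1, 1.92 ± 0.0563 in HFD mock and 0.748 ± 0.0412 in CD mock cells. Pmepa1 per Smad3 was 0.260 ± 0.0175, 12.4 ± 0.716, 4.03 ± 0.105 and 1.62 ± 0.015 in the same order. No library of one undifferentiated group overlapped with another in either ratio. Itga5-High cells had 2.13 ± 0.0323 Smad7 per Smad3 and Itga5-Low cells 1.54 ± 0.105, also without overlap.

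Smad3, Smad6, Smad7 and Pmepa1 had 1 transcript each in the tables, so their values carry no division between transcripts. Skil had 3 transcripts, and the one of 6609 bases took 29.5 ± 6.14% of Skil in Itga5-High and 26.9 ± 1.997% in Itga5-Low cells. Its share was 12.4 ± 8.25% in TGF-b1 + SB431542, 8.97 ± 0.925% in TGF-b1, 8.48 ± 5.58% in HFD mock and 7.47 ± 3.002% in CD mock cells. The replicate spread of these estimated shares was wide. The groups of undifferentiated cells overlapped, and so did Itga5-High and Itga5-Low cells. No difference in these shares was tested, and the differentiated cells are in a separately made table.

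Other genes of the pathway were read from lists of known roles, chosen with earlier results of these data known. By TMM, 33.4% of all genes were higher and 34.2% lower in TGF-b1 over CD mock. The shares were 41.4% and 38.3% in TGF-b1 + SB431542 over TGF-b1, 27.1% and 26.6% in HFD mock over CD mock, and 27% and 26.5% in Itga5-High over Itga5-Low. Of 20 TGF-b and Smad3 target genes, 18 rose and 1 fell with TGF-b1, with a median log2 change of 0.92, and 19 fell when SB431542 was added (18 with total counts, where Junb turned round). The same list had 18 higher and 2 lower in HFD mock over CD mock, and 10 higher and 9 lower in Itga5-High over Itga5-Low. Itga5 is itself on this list and is counted among the 10 higher (log2 change 0.52). Its product was the basis of the sort, so its call there says nothing about the targets. Among 9 BMP-branch Smads and BMP targets, 8 fell and 1 rose with TGF-b1 (median log2 change -0.36 by TMM and -0.51 with total counts, where the rise was lost and 8 stayed lower), including Id4 (log2 change -1.20 ± 0.07), a helix-loop-helix inhibitor of transcription. Adding SB431542 to TGF-b1 raised 8 of these 9, with Id1 at 1.16 ± 0.04 and Id2 at 1.15 ± 0.04. Of 7 receptors and co-receptors, 5 fell and 2 rose with TGF-b1 (median log2 change -0.19 by TMM and -0.34 with total counts, where both rises were lost and 5 stayed lower), and the co-receptor Tgfbr3 fell by 2.10 ± 0.03 log2 units.

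Of 5 Smad phosphatases, 4 fell with TGF-b1 and 4 rose when SB431542 was added, with the same counts under total-count scaling. Ctdspl, a small phosphatase of the CTD type, changed by -1.43 ± 0.05 with TGF-b1 and by 1.44 ± 0.05 with SB431542 over TGF-b1. Of 11 tested corepressors and nuclear partners, 2 rose and 6 fell with TGF-b1 (9 fell with total counts). Among 11 other ubiquitin ligases and deubiquitinases 5 rose and 3 fell by TMM, while 2 rose and 5 fell with total counts, and the ligase Nedd4l fell by 0.60 ± 0.05, opposite in sign to its relatives Smurf1 and Smurf2. Of 10 anchors, adaptors and transport factors, 5 rose and 1 fell by TMM, that 1 being the adaptor Dab2 (-0.96 ± 0.03), while 2 rose and 4 fell with total counts. With TGF-b1, 67.6% of all genes were called. The numbers of calls therefore do not by themselves set apart the receptor, phosphatase, corepressor, ligase and anchor lists. No list was tested as a set. The lists' medians lay between -0.37 and 0.92 with TGF-b1, against -0.02 over all genes.

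The genes whose group means most resembled those of a member were sought among 13011 genes over the 6 groups, by the root mean square difference of centred log2 means. Plec, Psat1 and Ripk2 were nearest to Smad7, at 0.03 to 0.04 log2 units. Hapln4, Ldlrad4 and Pycr1 were nearest to Skil at 0.08, and Bbc3, Prrx1 and Tspan17 to Smad6 at 0.05 to 0.06. Pmepa1 had no comparably near profile, with Bdnf at 0.20, Adamts6 at 0.26 and Car6 at 0.27. The differences were not scaled to a gene's range, which was widest for Pmepa1 among the members, so its distances do not compare directly with the others.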

How the data were processed

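The authors deposited estimated counts (expected counts) per RefSeq transcript, in 1 table for 12 undifferentiated and 1 for 6 differentiated libraries; per the submitters' processing notes, fastp, STAR, featureCounts and genome build mm10 were used. For tool versions, strandedness and how reads were split over transcripts, the sources used here give nothing. Values of all transcripts with the same symbol were added and the sums rounded (Python 3.11.15, pandas 2.3.3, numpy 2.4.6). Total counts of 11154449 to 17288608 per library set the sampling precision. Each table was fitted separately in R 4.3.3 with edgeR 4.0.16 (filterByExpr, TMM, estimateDisp, glmQLFit and glmQLFTest at defaults, 1 coefficient per group), leaving 14078 and 13468 genes, with Benjamini-Hochberg adjustment over all of them and calls at an adjusted p under 0.05. Standard errors came from a fit with dispersions of at least 1e-04, since edgeR approximates the deviance below that value. The scripts were tested on simulated data.

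All replicate pairs differed by only slightly more than sampling noise (chi-square per degree of freedom 1.15 to 1.25 in 18 pairs). All libraries were counted as replicates, although so small a spread does not show that they came from separate animals or cultures. Alternatives were DESeq2 1.42.0, total-count scaling, no filter, a minimum fold of 1.5, a replicate block, each library left out, only the compared groups, and, added after seeing the data, edgeR's newer quasi-likelihood fit. The named genes are the 10 members, check genes, at most 2 called genes of smallest adjusted p per list and comparison, and the 3 nearest profiles of Smad7, Skil, Pmepa1 and Smad6. Some genes taken by this rule are not reported here. The members and lists were chosen with earlier results of these data known. Figures were drawn with matplotlib 3.10.9.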

Additional observations from a re-analysis of the deposited data

How the results depend on the processing

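The number of members called was 8, 9, 7, 8 and 8 in TGF-b1 over CD mock, TGF-b1 + SB431542 over TGF-b1, TGF-b1 + SB431542 over CD mock, HFD mock over CD mock and Itga5-High over Itga5-Low. Requiring a change above 1.5-fold (glmTreat) left 5, 6, 2, 1 and 0 of them, since most changes were smaller. Replicate numbers did not pair the samples (correlations of same-numbered deviations between -0.0251 and 0.0182), and with the replicate number as a block the members called stayed at 8, 9, 7, 8 and 8, with 9472, 11190, 8539, 7533 and 7063 genes called. Total-count scaling turned round 5 member changes that were called under either scaling: Ski to -0.0485 in TGF-b1 over CD mock, Smad4 to 0.164 in TGF-b1 + SB431542 over TGF-b1, and Smad2 to 0.105, Smad6 to 0.0718 and Smurf1 to 0.0887 in TGF-b1 + SB431542 over CD mock. Smad4 in HFD mock over CD mock (to -0.0209) and Smad6 in Itga5-High over Itga5-Low (to -0.0191) also changed sign, called under neither scaling. Total-count scaling also moved the share of called genes that were higher from 49.4% to 31.4% in TGF-b1 over CD mock. The cause was not tested. DESeq2 lost the Smad2 and Pmepa1 calls in Itga5-High over Itga5-Low. The no-filter fit, the newer quasi-likelihood fit and the fit of only the compared groups kept every member's call, and the direction of every called member.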
